A study of Homo sapiens with 60 samples.

Results

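The genes described here are 42 genes that act in G2 and mitosis, from the cyclins and CDK1 to the kinetochore, the spindle and the cleavage furrow. They were taken by symbol, mapped from the Ensembl identifiers of the count table. The list was chosen with earlier results of these data known. All 42 were found among 60675 genes, and all 42 passed the filter on low counts that left 16356 genes for testing. They were followed in HT29 cells under vehicle and under every extract and dose.

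HT29 is an established human colorectal adenocarcinoma line. It was exposed for 24 h to water extracts of tonifying herbal medicines, and its messenger RNA was sequenced. The 57 libraries tested comprised vehicle and 18 treated groups, with 3 libraries in each. The treated groups were the single herbal drugs Cinnamomi Cortex, Astragali Radix, Cnidii Rhizoma and Rehmanniae Radix Preparata and the formulae Sagunja-tang and Samul-tang, each at 500, 100 and 20 µg/mL. Vehicle was DMSO, at 0.1% in the sample labels and 2% in the design text of the series, which was not settled. Doses are the labels' nominal values, and the design text states that an extract toxic at the top dose was used at lower concentrations instead. Paeoniae Radix had 1 library at each dose and entered no test. No source used here states that the libraries of a group came from separate cultures, so the p-values reflect spread between libraries that may be technical.

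In the cell cycle, CDK1 with its cyclins drives entry into mitosis, the kinetochore couples each chromosome to spindle microtubules, and the spindle checkpoint holds back the anaphase-promoting complex until every chromosome is attached. CENPE is a kinesin motor that carries chromosomes to the spindle equator, and CENPF is a large coiled-coil protein of the outer kinetochore. Most of these genes are transcribed in late cell cycle through a repressor element called the CHR and through CCAAT boxes bound by NF-Y, and they are used as markers of dividing cells.

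The promoters are shown because the genes share this form of control while differing widely in length. RefSeq promoters on GRCh38.p14, each running from 250 bases before to 50 bases after a transcription start, were matched for 36 members, with 46 promoters. Those without an entry were UBE2C, BUB3, BIRC5, TPX2, AURKA and TTK. Both strands were searched for CCAAT and for TTTGAA and TTTAAA, the letters of the common CHR. A match to CCAAT can share an end letter with a match to either of the others. CCAAT was found in 35 of the 46 promoters, or 76.1%, against 34.6% of 35116 promoters of the same length. TTTGAA or TTTAAA was found in 37, or 80.4%, against 24.0%. The sequences follow, each 5′ to 3′ on the strand of the gene, with every match on either strand in capitals. The long members CENPE (chr4:103198294-103198593, minus strand), CENPF (chr1:214602945-214603244, plus strand) and KIF20B (chr10:89701340-89701639, plus strand) come first. The short kinetochore members NUF2 (chr1:163321704-163322003, plus strand) and NDC80 (chr18:2571307-2571606, plus strand) and the cyclin CCNB2 (chr15:59104896-59105195, plus strand) come after them.
CENPE: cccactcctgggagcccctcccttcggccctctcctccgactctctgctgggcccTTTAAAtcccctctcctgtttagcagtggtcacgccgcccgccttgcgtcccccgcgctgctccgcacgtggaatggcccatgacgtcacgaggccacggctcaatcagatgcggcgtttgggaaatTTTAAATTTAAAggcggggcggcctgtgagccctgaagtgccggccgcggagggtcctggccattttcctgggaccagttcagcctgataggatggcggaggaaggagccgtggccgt
CENPF: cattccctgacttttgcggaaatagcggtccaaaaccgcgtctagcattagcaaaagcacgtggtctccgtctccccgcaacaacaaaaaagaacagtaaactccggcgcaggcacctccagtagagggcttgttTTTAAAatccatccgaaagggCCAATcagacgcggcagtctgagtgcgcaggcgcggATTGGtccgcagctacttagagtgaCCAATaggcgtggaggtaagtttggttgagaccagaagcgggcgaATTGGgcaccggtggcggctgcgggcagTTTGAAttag
KIF20B: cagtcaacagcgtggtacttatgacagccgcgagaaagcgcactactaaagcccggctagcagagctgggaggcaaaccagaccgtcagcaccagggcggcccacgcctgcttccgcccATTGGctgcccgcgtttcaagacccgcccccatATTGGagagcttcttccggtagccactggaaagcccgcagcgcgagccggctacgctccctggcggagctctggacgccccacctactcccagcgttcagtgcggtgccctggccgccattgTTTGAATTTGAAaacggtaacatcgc
NUF2: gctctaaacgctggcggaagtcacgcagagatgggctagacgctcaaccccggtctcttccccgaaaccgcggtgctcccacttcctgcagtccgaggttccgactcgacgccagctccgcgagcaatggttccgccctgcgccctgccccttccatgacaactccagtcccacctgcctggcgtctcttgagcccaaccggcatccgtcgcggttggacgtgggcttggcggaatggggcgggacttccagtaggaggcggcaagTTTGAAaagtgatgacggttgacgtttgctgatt
NDC80: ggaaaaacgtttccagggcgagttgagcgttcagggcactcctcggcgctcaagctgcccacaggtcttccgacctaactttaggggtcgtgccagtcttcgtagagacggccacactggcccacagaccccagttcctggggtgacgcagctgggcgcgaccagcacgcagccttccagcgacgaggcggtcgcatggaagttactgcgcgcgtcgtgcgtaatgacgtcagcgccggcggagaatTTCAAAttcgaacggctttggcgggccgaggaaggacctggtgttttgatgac
CCNB2: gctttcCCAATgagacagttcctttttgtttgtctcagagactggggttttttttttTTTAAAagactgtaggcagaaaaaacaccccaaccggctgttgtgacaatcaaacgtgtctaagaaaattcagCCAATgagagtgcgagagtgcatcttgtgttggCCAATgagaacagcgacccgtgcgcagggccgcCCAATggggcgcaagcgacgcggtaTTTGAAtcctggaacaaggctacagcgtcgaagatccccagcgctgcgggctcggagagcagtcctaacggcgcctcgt
The CENPE window held 3 copies of TTTAAA and no CCAAT, and the CENPF window held 4 copies of CCAAT with 1 TTTAAA and 1 TTTGAA. NUF2 and NDC80 each held 1 TTTGAA and no CCAAT. All 7 members that fell at the top dose of Cinnamomi Cortex, described next, had a match to TTTGAA or TTTAAA, as did 33 of the 36 members with a promoter. The letters searched therefore do not separate the members that fell from the rest, and a match is a description of the sequence and not a site.

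Before the results, features of the whole series that touch them are given. The first principal component, with 15.7% of the variance, separated 2 sets of libraries that the labels do not name. The first set, of 27, holds vehicle, all of Rehmanniae Radix Preparata and Cnidii Rhizoma, and only replicate 1 of Astragali Radix and Cinnamomi Cortex. The second, of 30, holds both formulae together with replicates 2 and 3 of those last drugs. Cinnamomi Cortex 500 replicate 2, of the second set, lay with the first at -15.99. Vehicle replicate 3, at -25.3, lay farthest out of the vehicle libraries. Results are therefore given with and without a term for the set, which was chosen with the data known. All 11 epithelial and intestinal markers passed the filter, with a summed level of 10500 to 13500 CPM over all libraries. CPM are counts on the usual scale relative to the TMM-scaled library total, except that the marker sums use the plain library total. The summed level of 8 fibroblast markers was 1.72 to 3.03 CPM, of 4 endothelial markers 1.19 to 2.45 and of 4 hepatocyte markers 0.0351 to 0.419. That of 8 leukocyte markers was 1290 to 1770 CPM and came from LYZ, with a mean of 1450, while CD3D and MS4A1 were at 0 in every library. In bulk RNA, fewer cells in mitosis and less of a transcript per cell cannot be told apart.

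Every member was well expressed in vehicle. Per kilobase of the longest transcript, their median was 27.1 CPM against 4.94 over the 16242 tested genes with a length, and all 42 lay above the latter. The lowest count of any member in any library was 283. UBE2C, the E2 enzyme of the anaphase-promoting complex, was highest at 115.2 ± 1.96 CPM per kilobase (SD, n = 3), followed by securin, PTTG1, at 97.6 ± 4.36 and the spindle factor TPX2 at 94.7 ± 6.34. The last of these 3 did not stand apart from PTTG1, given the spread. Among kinetochore genes CENPF had 27.6 ± 1.71 CPM per kilobase and NDC80, which binds microtubules, had 19.1 ± 0.835. CENPE was lower, at 8.79 ± 0.594, near NUF2, the partner of NDC80, at 10.3 ± 0.324. CKAP2L, a spindle protein, was lowest at 6.11 ± 0.395.

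At 500 µg/mL Cinnamomi Cortex lowered most of the long members, while most short ones did not pass the test. Against vehicle 7 members fell and 4 rose of 42, while 12.9% of all tested genes were called, 6.22% higher and 6.69% lower. Called means an adjusted p under 0.05 in edgeR's quasi-likelihood test with Benjamini-Hochberg adjustment, and every adjusted p below comes from it. The genes that fell were CENPE, CENPF, KIF20B, ASPM, KIF14, HMMR and TOP2A. With the set term 5 fell and 7 rose, with 11.8% of all genes called, and KIF14 and HMMR were no longer among those that fell. Without Cinnamomi Cortex 500 replicate 3 the count called was 7 rather than 11. The epithelial markers summed to 11600 to 13500 CPM in these libraries and 10900 to 11700 in vehicle, and their part in the result was not tested.

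CENPE (chr4:103105806-103198409 on GRCh38, minus strand) showed the largest change of any member in this comparison. Its level was 42.5, 27.1 and 22.8 CPM in the 3 libraries of Cinnamomi Cortex 500 and 72.3, 73.3 and 81.6 CPM in vehicle. The highest treated library thus lay well under the lowest vehicle library. The log2 fold change was -1.30 (SE 0.12, adjusted p = 5.6e-12), and -1.12 with the set term. It ranked 95th from the lowest of 16356 genes. Within the first set of libraries, replicate 1 had 42.5 CPM against the vehicle values above. Within the second set, replicates 2 and 3 had 27.1 and 22.8 CPM against 68.3 and 67.8 CPM in replicates 2 and 3 of Cinnamomi Cortex 20, so the fall was present inside both sets.

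CENPF (chr1:214603195-214664588, plus strand) had 204, 164 and 174 CPM in the treated libraries and 273, 276 and 305 CPM in vehicle. The groups did not overlap, and the log2 fold change was -0.66 (SE 0.07, adjusted p = 1.6e-10). KIF20B, a kinesin of late mitosis (chr10:89701610-89774939, plus strand), had 100.1, 73.4 and 68.5 CPM against 120.3, 119.7 and 127 CPM. Replicate 1 was again the highest of the treated libraries, and the log2 fold change was -0.60 (SE 0.08, adjusted p = 5.2e-07). ASPM, which organises microtubules at spindle poles (chr1:197084128-197146694, minus strand), had 164.5, 146 and 146.3 CPM against 198, 199 and 217 CPM. Here too the groups were apart, and the log2 fold change was -0.43 (SE 0.06, adjusted p = 5.1e-07). CENPE, CENPF, KIF20B and ASPM kept their call under all 13 alternative settings run for each.

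The other 3 fell by less. KIF14, a kinesin of cytokinesis, changed by -0.24 (adjusted p = 0.0043), a call lost without Cinnamomi Cortex 500 replicate 3. TOP2A, the topoisomerase that untangles sister chromosomes, had 385, 365 and 387 CPM against 437, 406 and 409 CPM, a log2 fold change of -0.14 (adjusted p = 0.013). This call was lost without Cinnamomi Cortex 500 replicate 2 or vehicle replicate 1, with no filter on low counts (-0.13, adjusted p = 0.14) and with a trend on GC content removed (-0.05, adjusted p = 0.37). HMMR, a spindle protein of 725 residues, changed by -0.15 (adjusted p = 0.048) and lost its call in 9 of 13 alternatives, among them without Cinnamomi Cortex 500 replicate 2 or 3 and without vehicle replicate 1 or 3. It was the only short member that fell against vehicle.

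**Figure D1:**
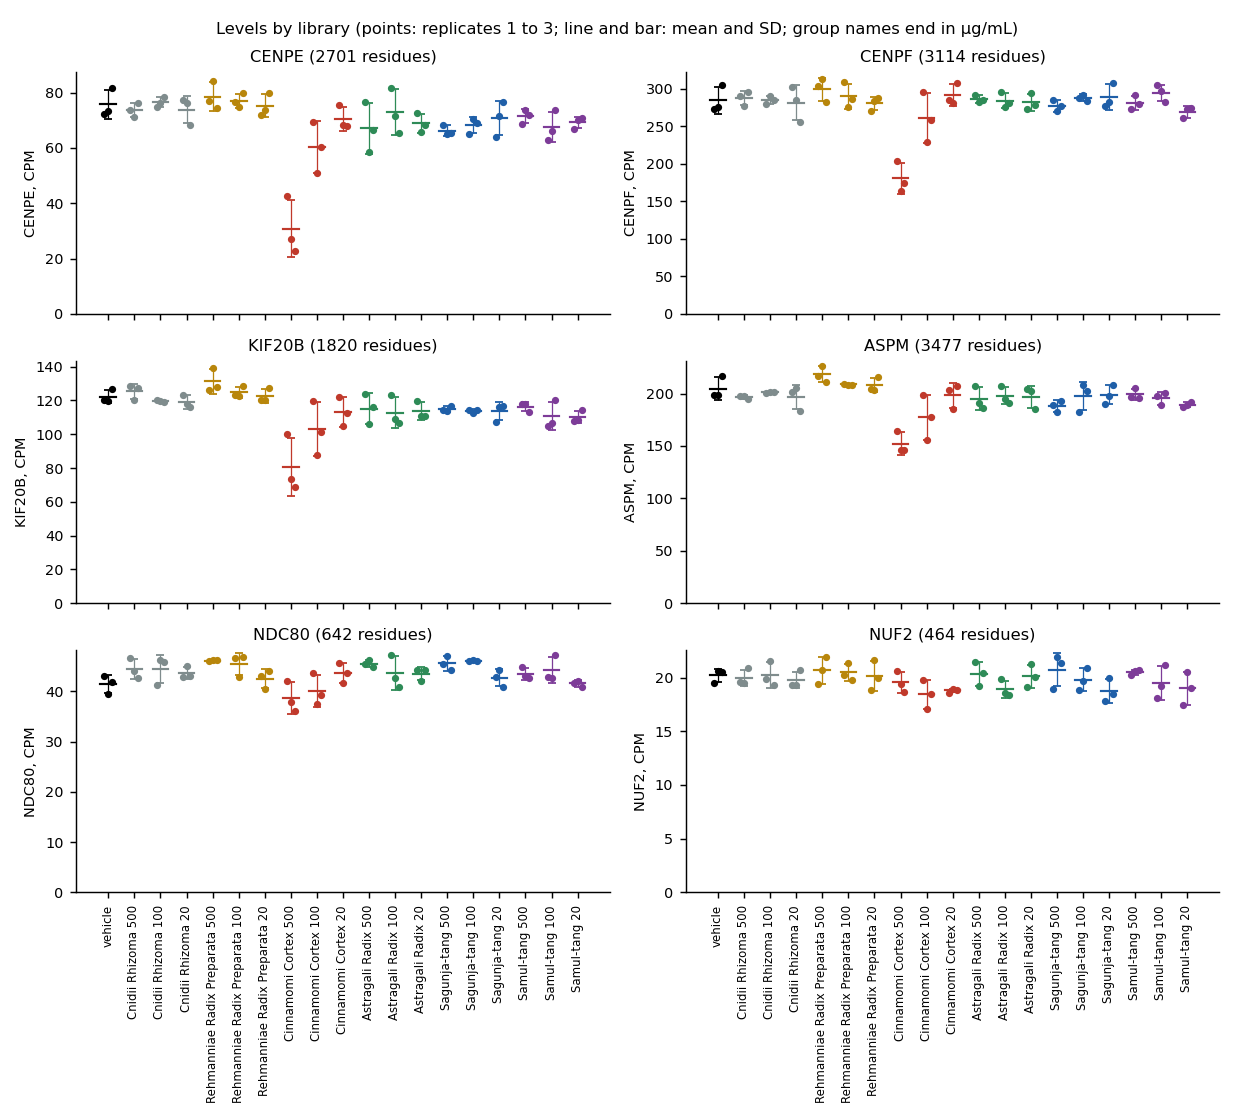
Levels in CPM (vertical axes, from 0) of CENPE, CENPF, KIF20B, ASPM, NDC80 and NUF2 in each library of vehicle and the 18 treated groups (horizontal axis, dose in µg/mL), with the mean and SD of 3 libraries. CENPE in Cinnamomi Cortex 500 sits at 22.8 to 42.5, under all other libraries, while NUF2 overlaps vehicle.

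Against vehicle the short kinetochore members did not follow CENPE and CENPF, though NDC80 was called lower in other comparisons given below. NUF2 had 20.6, 19.4 and 18.7 CPM in Cinnamomi Cortex 500 and 19.5, 20.6 and 20.5 CPM in vehicle, a log2 fold change of -0.05 (SE 0.07, adjusted p = 0.72). NDC80 had 42.1, 37.9 and 36 CPM against 43.1, 39.5 and 41.9 CPM, or -0.10 (SE 0.06, adjusted p = 0.25). SPC25, a subunit of the same NDC80 complex, was at 0.01 (SE 0.08, adjusted p = 0.94). For these 3 the treated and vehicle libraries overlapped. CENPA, the histone variant that marks centromeres, lay above vehicle in all 3 libraries, at 0.19 (SE 0.08), without passing the test (adjusted p = 0.093).

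AURKB, CDC25B, KIF2C and CDC20, short members of other roles, rose. AURKB, the kinase of the chromosomal passenger complex, had 47, 48.2 and 47.4 CPM against 40.9, 42.4 and 38.6 CPM, a log2 fold change of 0.22 (adjusted p = 0.012), which was lost without vehicle replicate 3. CDC25B, a phosphatase that activates CDK1, rose by 0.22 (adjusted p = 0.0013) and kept its call under all 13 alternatives. KIF2C, a kinesin that takes microtubules apart, rose by 0.19 (adjusted p = 0.0028), and CDC20, an activator of the anaphase-promoting complex, by 0.18 (adjusted p = 0.0091). Both of the last lost their call without Cinnamomi Cortex 500 replicate 3, and CDC20 also with the set term (0.14, adjusted p = 0.054) and with a trend on GC content removed (0.11, adjusted p = 0.074). None of the 5 spindle checkpoint members BUB1, BUB1B, BUB3, MAD2L1 and TTK passed the test, and their median log2 fold change was 0.04. CDK1 itself had 74.3, 80.3 and 85.3 CPM against 77.8, 73.6 and 69.1 CPM, with overlap (0.12, adjusted p = 0.25). With the set term AURKA (0.19, adjusted p = 0.0038), PLK1 (0.26, adjusted p = 0.008), CCNA2 and PTTG1 were also called higher, and CDC20 was not.

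The lower doses showed less. At 100 µg/mL CENPE had 69.5, 51 and 60.5 CPM, a log2 fold change of -0.33 (SE 0.11) that missed the threshold (adjusted p = 0.053). All 3 values lay under the vehicle libraries. KIF20B was at -0.25 (adjusted p = 0.051) and CENPF at -0.12 (adjusted p = 0.23), and ASPM fell by 0.21 on the log2 scale (adjusted p = 0.022). At this dose 4 members rose and 2 fell, ASPM and the cytokinesis factor ECT2, with 8.08% of all genes called, 3.83% higher and 4.25% lower. With the set term only AURKB stayed called, with 1.52% of all genes. At 20 µg/mL no member was called by edgeR or by DESeq2, 8 had an unadjusted p under 0.05, and 1.71% of all genes were called. The share of all genes at that unadjusted threshold was not counted, here or in the comparisons below. Such counts of members therefore cannot be set against the shares of genes called. CENPE there had 75.5, 68.3 and 67.8 CPM, overlapping vehicle.

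A comparison of 500 with 20 µg/mL of Cinnamomi Cortex uses no vehicle library and balances the 2 sets. In it 7 members fell and 1 rose, with 10.2% of all genes called, 4.6% higher and 5.61% lower. CENPE was at -1.20 (SE 0.11, adjusted p = 6.8e-11), CENPF at -0.69 (adjusted p = 5.5e-11), KIF20B at -0.49 (adjusted p = 3.1e-05) and ASPM at -0.38 (adjusted p = 5.6e-06). TOP2A (-0.21), HMMR (-0.15) and NDC80 (-0.18, adjusted p = 0.035) also fell, and cyclin A2, CCNA2, rose by 0.18 (adjusted p = 0.022). NDC80 had 42.1, 37.9 and 36 CPM against 45.6, 41.7 and 43.6 CPM, with overlap. Its call was lost in 5 of 13 alternatives, among them without either of Cinnamomi Cortex 500 replicates 2 and 3 or either of Cinnamomi Cortex 20 replicates 1 and 3. HMMR lost its call in 7 of 13 alternatives, including without any one of the same 4 libraries. CCNA2 lost its call without Cinnamomi Cortex 500 replicate 1 or 2 or Cinnamomi Cortex 20 replicate 2 or 3. The count called was 14 with the set term, which called 14.2% of all genes, and 5 without Cinnamomi Cortex 500 replicate 2 or without Cinnamomi Cortex 20 replicate 3.

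Against the other extracts at 500 µg/mL the same 4 long members were lower each time, as was TOP2A. These 5 comparisons were added after the data were seen, and they share the Cinnamomi Cortex libraries. CENPE differed by -1.11 from Sagunja-tang, -1.13 from Astragali Radix, -1.22 from Samul-tang, -1.27 from Cnidii Rhizoma and -1.36 from Rehmanniae Radix Preparata. CENPF ranged from -0.73 to -0.62, KIF20B from -0.70 to -0.51 and ASPM from -0.52 to -0.31, all called. TOP2A, also long, ranged from -0.32 to -0.22 and was called in all 5. NDC80 was lower in all 5 as well, by a smaller amount (-0.26 to -0.17), though not against Cnidii Rhizoma with the set term (adjusted p = 0.097), while NUF2, SPC25 and CENPA were called in none. Members called numbered 11 of 42 against Cnidii Rhizoma, where 9.22% of all genes were called. They numbered 13 against Rehmanniae Radix Preparata (10.8% of all genes), 9 against Astragali Radix (10.8%), 10 against Sagunja-tang (15.4%) and 13 against Samul-tang (18%). Those called lower numbered 10, 12, 7, 10 and 9 in the same order, and those called higher 1, 1, 2, 0 and 4. The shares of all genes were 4.9%, 5.74%, 5.83%, 7.54% and 8.46% lower and 4.32%, 5.01%, 4.97%, 7.81% and 9.56% higher. Of the members called lower 6, 6, 6, 6 and 7 were long and 4, 6, 1, 4 and 2 short. HMMR and KIF23, both short, fell against Cnidii Rhizoma (-0.27 and -0.21) and Rehmanniae Radix Preparata (-0.29 and -0.23). In the 57 libraries outside Cinnamomi Cortex 500, the 3 of Paeoniae Radix included, CENPE ranged from 51 to 84.3 CPM and CENPF from 229 to 313 CPM. Over all 19 groups the highest group mean of CENPE was 2.55 times the lowest. For CENPF this ratio was 1.66, for KIF20B 1.63, for PTTG1 1.45 and for ASPM 1.43.

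The question of whether long members moved apart was put to transcript length. A member was counted as long if its longest protein-coding transcript in GENCODE release 29 had at least 5000 bases, which held for 8: CENPE, CENPF, ASPM, KIF20B, KIF14, TOP2A, BUB3 and MAD2L1. The other 34 were short. In Cinnamomi Cortex 500 against vehicle the long members had a median log2 fold change of -0.33 and the short ones 0.05, a difference of -0.38. Of the 8 long members 6 fell. Of the 34 short members 1 fell and 4 rose. BUB3 (0.04) and MAD2L1 (0.08), which did not pass the test, have long transcripts but proteins of only 328 and 205 residues. All 6 members with proteins of at least 1500 residues fell, a cut chosen after the data were seen. The 5 members with proteins from 1000 to under 1500 residues had a median of 0.01, and none of them was called.

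**Figure D2:**
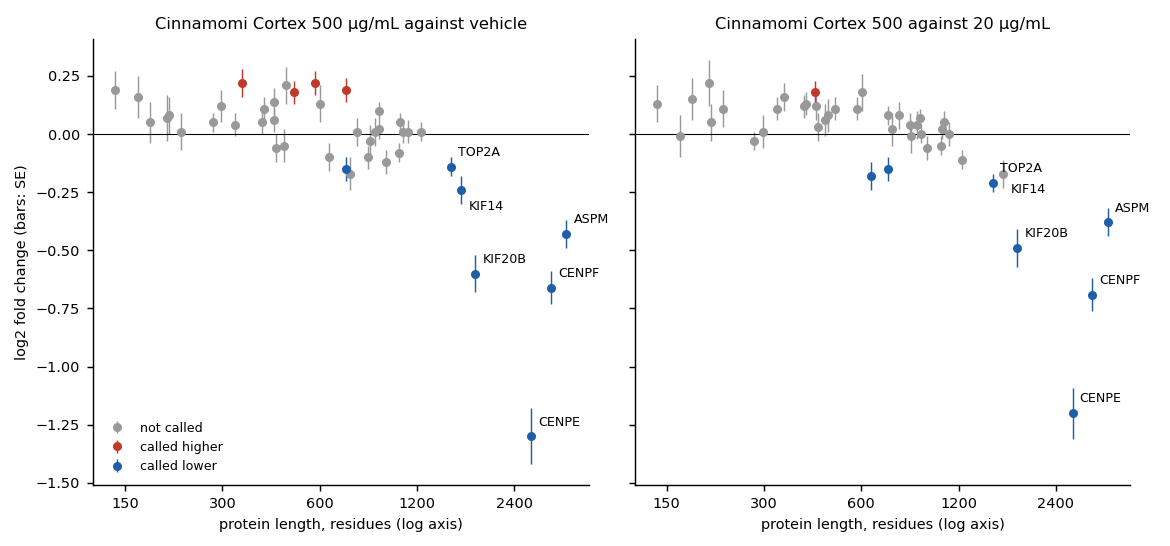
Log2 fold change with its standard error (vertical axis) against protein length in residues (horizontal log axis) for the 42 members, in Cinnamomi Cortex 500 µg/mL against vehicle (left) and against 20 µg/mL (right). Points for the 6 longest proteins lie below 0 in both panels, with CENPE lowest at -1.30 and -1.20, and colours mark members called higher or lower.

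Genes outside the group moved with length too, but by far less. The same difference between long and short transcripts was -0.06 over 3582 long and 12618 short other genes. The share of other genes that fell rose with protein length. It was 4.08% under 500 residues, 6.93% from 500, 13.5% from 1000 and 17.7% from 1500 to under 2000 residues. Among 356 other genes with proteins of at least 2000 residues the median was -0.06 and 19.9% fell, against -0.66 and 3 of 3 for CENPE, CENPF and ASPM. Across genes, which are not independent replicates and share these libraries, the rank correlation of fold change with protein length was -0.67 over the 42 members and -0.13 over 16200 other genes. Base composition moved with length and with the result. The median GC content was 38.7% in long and 43.8% in short members, and the rank correlation of fold change with GC content was 0.71 over members and 0.32 over other genes. Among 78 other genes with proteins of at least 2000 residues and GC content below 42%, the median was -0.22 and 50% fell. At that GC content 7.56% of other genes with proteins under 500 residues fell. With a trend on GC content removed CENPE was at -1.19, and with a trend on length removed at -1.24. The difference between long and short members was -0.31 with the GC trend removed, against -0.38, and -0.34 for 500 against 20 µg/mL. These values were added after the data were seen.

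The gap depended on how length was counted. A split of the members at their median length gave -0.06, transcripts counted as the union of exons gave -0.19, and proteins of at least 2000 residues gave -0.69, each in Cinnamomi Cortex 500 against vehicle. Against 20 µg/mL the gap was -0.35, with -0.05 over other genes. In the other extracts at 500 µg/mL against vehicle it ranged from -0.12 in Sagunja-tang to -0.02 in Rehmanniae Radix Preparata. Library by library, the mean of the long members less that of the short ones, relative to vehicle, was -0.52 to -0.33 in Cinnamomi Cortex 500 and -0.25 to 0.10 in the other 57 libraries. The vehicle libraries lay within 0.01 of 0. No library of another group reached the range of Cinnamomi Cortex 500, and the nearest was one of Cinnamomi Cortex 100.

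**Figure D3:**
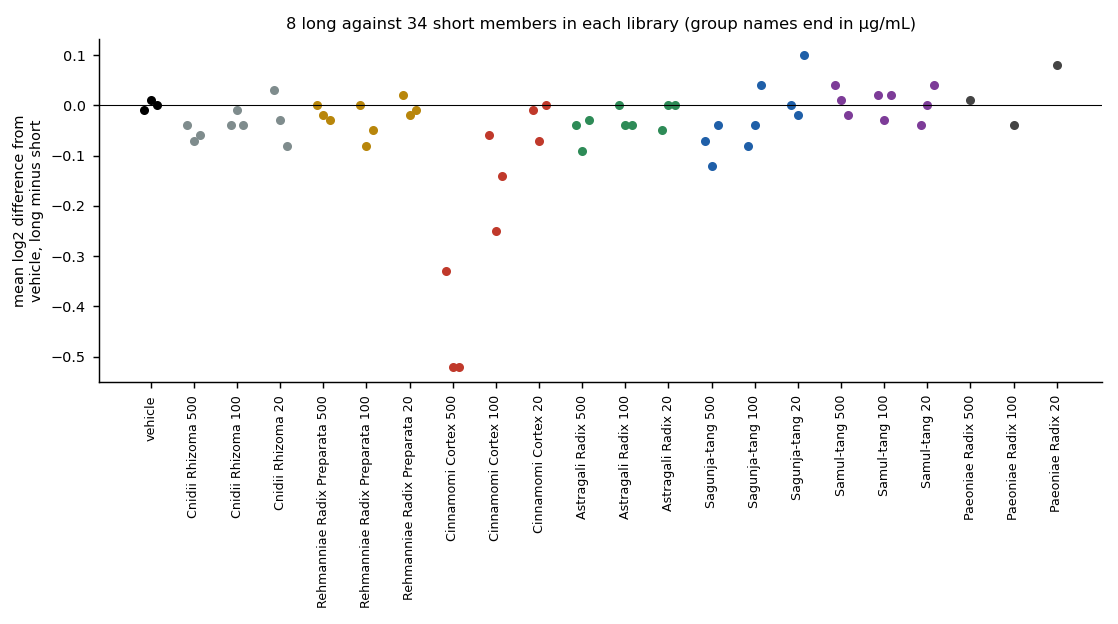
Mean log2 difference from vehicle of the 8 long members minus that of the 34 short members (vertical axis) for each of the 60 libraries, by group and dose in µg/mL (horizontal axis). The 3 libraries of Cinnamomi Cortex 500 lie at -0.52 to -0.33, below the other 57 at -0.25 to 0.10.

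Mitosis and cell cycle genes outside the group were read from 170 listed genes, against 6.22% of all genes called higher and 6.69% lower in this comparison. MKI67, the proliferation antigen Ki-67 and a long protein too, had 834, 693 and 688.5 CPM in Cinnamomi Cortex 500 against 928, 948 and 1136 CPM in vehicle, a log2 fold change of -0.44 (adjusted p = 6.6e-05). The long kinetochore genes KNTC1 (-0.31, adjusted p = 0.00014) and KNL1 (-0.22, adjusted p = 0.0065) fell too. These 3 were the ones that fell among 8 listed genes with proteins of at least 1500 residues, and ANAPC1, CIT, CKAP5, ESPL1 and POLE did not pass the test. The median of the 8 was 0.01. Of the 162 with shorter proteins 11 fell and 14 rose, or 6.79% and 8.64%, which is near the share over all genes. Those that fell included the condensin and cohesin subunits SMC4 (-0.46), SMC3 (-0.29) and SMC2 (-0.22) and the centromere genes CENPC (-0.38) and SGO2 (-0.31). Of 33 other kinetochore genes 5 fell and 2 rose, and of 37 other mitosis genes 4 fell and 3 rose. FOXM1, a transcription factor that drives many of the members, did not pass the test (0.06, adjusted p = 0.53). Its partner MYBL2 was at 0.15 (adjusted p = 0.046), a call lost in 8 of 13 alternatives, among them without any one Cinnamomi Cortex 500 library and without vehicle replicate 1 or 2. Of 14 genes of this transcriptional control 2 rose and 1 fell. Of 15 genes listed under CDK inhibitors and cell cycle arrest, some of them cyclins, 2 rose. These were CDKN1A by 0.76 (adjusted p = 2.9e-09) and SFN by 0.24 (adjusted p = 0.00083).

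The formulae raised CDK1 and several other members at the top dose, and CDK1 at the lower doses too. In Sagunja-tang 500 against vehicle 13 members rose and none fell, with 20.2% of all genes called, 11.7% higher and 8.5% lower. DESeq2 called 14 members higher and none lower, and 18 members had an unadjusted p under 0.05. In Samul-tang 500, where 18.5% of all genes were called, 10.2% higher and 8.3% lower, 7 members rose and none fell. There DESeq2 called 7 higher and 1 lower, and 16 members had an unadjusted p under 0.05. Since vehicle has no library in the set of the formulae, extract and set can be told apart only through Cinnamomi Cortex and Astragali Radix, which have libraries in both. CDK1 had 96.8, 95.7 and 96.8 CPM in Sagunja-tang 500 against 77.8, 73.6 and 69.1 CPM in vehicle, and the groups lay apart. Its log2 fold change was 0.39 (SE 0.07, adjusted p = 7e-05), or 0.30 (adjusted p = 0.016) with the set term. In Samul-tang 500 it had 103.7, 93.3 and 89.9 CPM and rose by 0.38 (adjusted p = 0.00012), or 0.28 (adjusted p = 0.031) with the set term. Both comparisons use the same vehicle libraries. TOP2A rose by 0.18 (adjusted p = 0.0011) and 0.19 (adjusted p = 0.0012), against its fall in Cinnamomi Cortex 500, and kept its call with the set term. Outside the group, MKI67 was called lower in Sagunja-tang 500 and in Samul-tang 500, as in Cinnamomi Cortex 500. No other of the 8 listed genes with proteins of at least 1500 residues was called lower in these formulae. Of the 8, 2 rose in Sagunja-tang 500 and 1 in Samul-tang 500.

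BIRC5, or survivin, of the chromosomal passenger complex had 81.7, 76.4 and 78.4 CPM in Sagunja-tang 500 against 67.6, 61.6 and 56.3 CPM. The groups were apart and the log2 fold change was 0.35 (adjusted p = 0.0062), but it was 0.15 (adjusted p = 0.47) with the set term. The call was also lost without vehicle replicate 3. The checkpoint protein MAD2L1 rose by 0.34 (adjusted p = 0.002) and cyclin B1, CCNB1, by 0.26 (adjusted p = 0.0013), and neither call was kept with the set term. KIF2C rose by 0.25 (adjusted p = 0.0002) and was called with that term. Of the short kinetochore members, CENPA rose by 0.23 here and by 0.25 in Samul-tang 500, and was also called higher in Sagunja-tang 100. None of these CENPA calls was kept with the set term. NUF2, NDC80 and SPC25 were not called in either formula at 500 µg/mL, though NDC80 was called higher in Sagunja-tang 500 with the set term. CENPE (-0.19, adjusted p = 0.21) and CENPF (-0.04, adjusted p = 0.73) did not pass the test in Sagunja-tang 500. The members called with the set term were 6 in Sagunja-tang 500, with 2.12% of all genes, and 3 in Samul-tang 500, with 1.22%. The shares of all genes called thus fell along with the members' counts. Mitochondrial messenger RNA made up 6.21% to 6.92% of counts in Sagunja-tang 500 and 5.84% to 7.33% in Samul-tang 500, against 8.71% to 11.4% in vehicle, and its part in these results was not tested. Without vehicle replicate 3 the counts were 7 and 2, and without Samul-tang 500 replicate 1 the latter was 2.

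At 100 and 20 µg/mL of the formulae some members of late mitosis were lower. Mitochondrial messenger RNA was under vehicle here as well, at 6.59% to 7.41% of counts in Sagunja-tang 20, 5.85% to 7.37% in Samul-tang 100 and 6.67% to 7.55% in Samul-tang 20, and its part was not tested. In Sagunja-tang 20, with 18.5% of all genes called, 9.68% higher and 8.85% lower, 6 members fell and 5 rose. Securin, PTTG1, had 72.9, 87.4 and 73 CPM against 101.4, 102 and 109.8 CPM, and all treated values lay under vehicle. Its log2 fold change was -0.42 (adjusted p = 0.0032), but -0.17 (adjusted p = 0.56) with the set term. UBE2C (-0.27), the kinase PLK1 (-0.23), CKAP2L (-0.23), NUSAP1 (-0.22) and CCNB2 (-0.17) fell with it. In Samul-tang 100, where 21.9% of all genes were called, 12% higher and 9.94% lower, 6 fell and 7 rose, PTTG1 being at -0.32 (adjusted p = 0.015). In Samul-tang 20, with 11% called, 5.85% higher and 5.11% lower, 4 fell and 2 rose. In Sagunja-tang 100, with 16.6% called, 9.34% higher and 7.23% lower, 9 rose and none fell in edgeR or DESeq2, and 15 members had an unadjusted p under 0.05. With the set term no member was called lower in any of these 4 comparisons. All genes called then made up 0.605% in Sagunja-tang 20, 0.55% in Samul-tang 100, 0.367% in Samul-tang 20 and 0.66% in Sagunja-tang 100. Summed over the 12 comparisons of 100 and 20 µg/mL with vehicle there were 48 calls of members, or 9.52% of those possible, against 6.89% over all genes. There were 4 with the set term (0.794% against 0.564%), 28 without vehicle replicate 2 (5.56% against 3.66%) and 11 without vehicle replicate 3 (2.18% against 2.92%).

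In the other single drugs few members were called. Members' values above 0 numbered 41 of 42 in Rehmanniae Radix Preparata 500, 36 in Cnidii Rhizoma 500 and 27 in Astragali Radix 500. Their medians were 0.09, 0.08 and 0.02, against 0.00 over all genes in each, with the vehicle libraries shared. Members with an unadjusted p under 0.05 numbered 14 in Rehmanniae Radix Preparata 500 and 10 in Astragali Radix 500. Rehmanniae Radix Preparata 500 raised AURKB by 0.25 (adjusted p = 0.044) and the checkpoint kinase BUB1B by 0.20 (adjusted p = 0.0085), with 0.636% of all genes called, 0.404% higher. BUB1B had 112.6, 121.5 and 117.8 CPM against 98.3, 99.95 and 108.4 CPM, without overlap. Both calls held with the set term, which called 1.25% of all genes. That of AURKB was lost without any single library of either group, and that of BUB1B without Rehmanniae Radix Preparata 500 replicate 2 or 3 or vehicle replicate 1 or 2. Cnidii Rhizoma 500 had no call in edgeR, with 1.48% of all genes called and 8 members at an unadjusted p under 0.05, while DESeq2 called 2. AURKB and BUB1B were called there too with the set term, and then 2.58% of all genes were called. Astragali Radix 500 raised KIF2C (0.17, adjusted p = 0.03) and TOP2A (0.13, adjusted p = 0.044), with 3.58% of all genes called, 2.12% higher. With the set term, which called 0.825% of all genes, neither stayed called, and NDC80 (0.21, adjusted p = 0.041) and BUB1B (0.15, adjusted p = 0.044) were called higher instead. KIF2C and TOP2A also lost their call without Astragali Radix 500 replicate 2, Astragali Radix 500 replicate 3, vehicle replicate 2 or vehicle replicate 3.

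**Figure D4:**
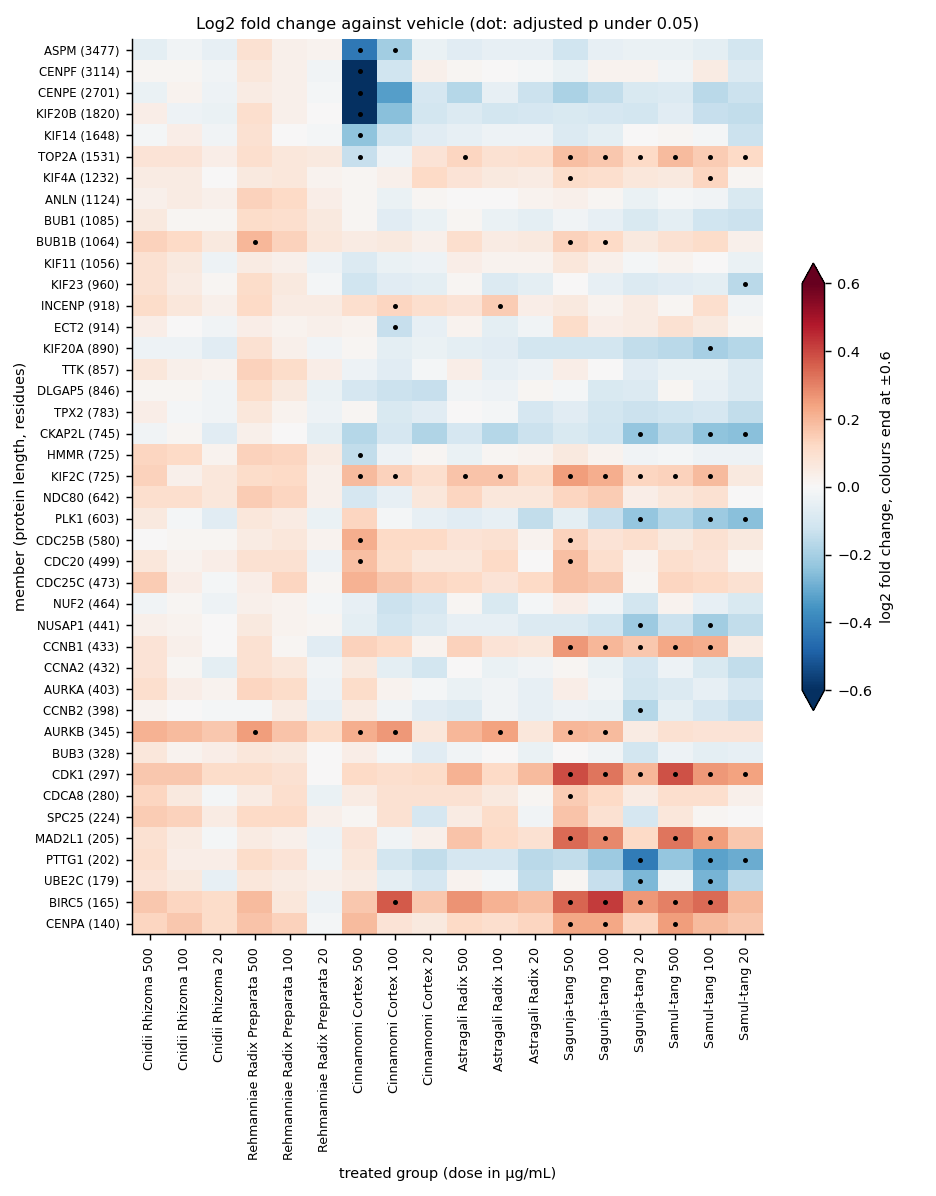
Log2 fold change against vehicle (colour, ending at ±0.6) of the 42 members, ordered by protein length in residues (vertical axis), in the 18 treated groups (horizontal axis, dose in µg/mL), with dots for adjusted p under 0.05. The longest proteins are blue in Cinnamomi Cortex 500, with CENPE at -1.30, and red cells for CDK1 and BIRC5 stand in the columns of the formulae.

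At the lower doses Astragali Radix 100 raised AURKB, KIF2C and INCENP, with 2.51% of all genes called, 1.61% higher. None was called with the set term, which called 0.569% of all genes. No member was called in Cnidii Rhizoma 100 (0.147% of all genes), Cnidii Rhizoma 20 (0.293%), Rehmanniae Radix Preparata 100 (0.208%), Rehmanniae Radix Preparata 20 (0.434%) or Astragali Radix 20 (1.39%). DESeq2 called none in these 5 either, and members with an unadjusted p under 0.05 numbered 6, 1, 9, 0 and 3. Over the 18 comparisons with vehicle, which share the vehicle libraries, 29 members, or 69.0%, were called at least once and 13 never, while 42.3% of all genes were called at least once. These shares were 38.1% and 15.4% with the set term. KIF2C was called higher in 9, TOP2A in 7, and CDK1, AURKB and BIRC5 in 6 each. With the set term KIF2C, TOP2A and CDK1 were called higher in 2 each, AURKB in 4 and BIRC5 in 0, while BUB1B was called higher in 7, against 3 without the term. Of the 29, 13 were called higher only and 15 lower only, and TOP2A was called both ways.

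Between 500 and 20 µg/mL of the other 5 extracts no member was called in edgeR or DESeq2. The shares of all genes called were 0.428% in Cnidii Rhizoma, 0.177% in Rehmanniae Radix Preparata, 0.0734% in Astragali Radix, 0.00611% in Sagunja-tang and 0.141% in Samul-tang. Members with an unadjusted p under 0.05 numbered 5, 13, 1, 17 and 5, and the share of all genes at that threshold was not counted. The members' values were above 0 for 39, 42, 34, 38 and 41 of 42 in the same order, with medians of 0.05, 0.09, 0.03, 0.10 and 0.07. The median over all genes was 0.00 in each. In Sagunja-tang the long members had a median of -0.02 and the short ones 0.11, a difference of -0.13.

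**Figure D5:**
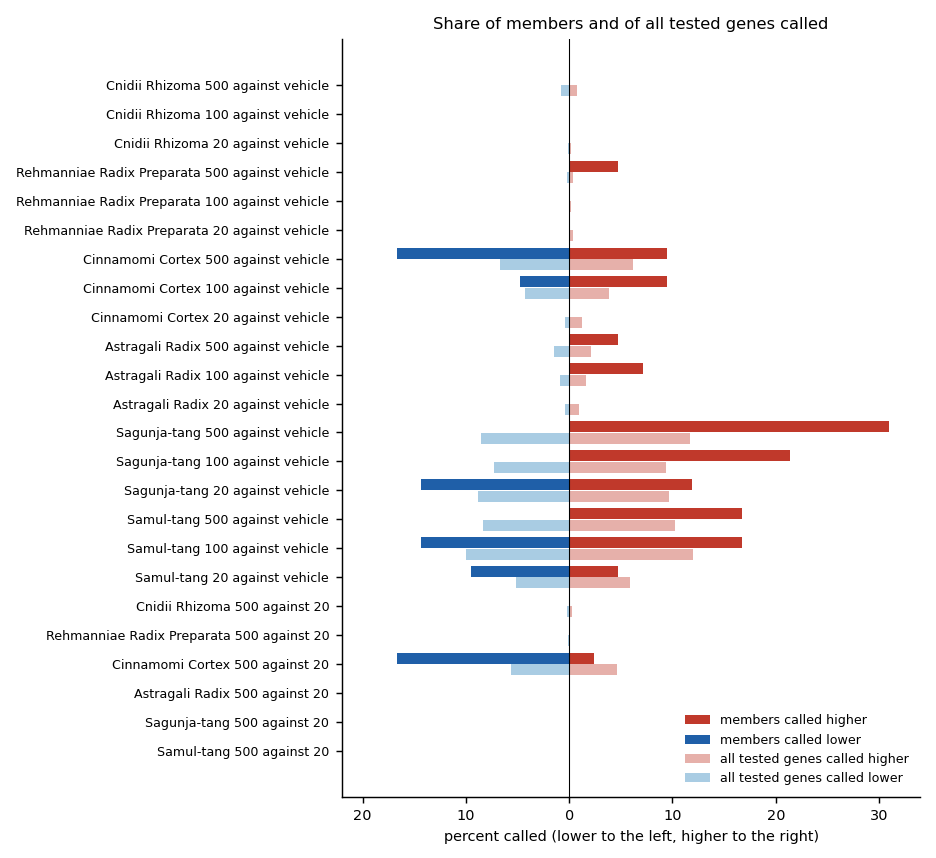
Percent of the 42 members (dark bars) and of all 16356 tested genes (pale bars) called higher (right of 0) or lower (left of 0) in each comparison (vertical axis). The members called lower reach 16.7% in Cinnamomi Cortex 500, both against vehicle and against 20 µg/mL, where 6.69% and 5.61% of all genes were lower, and the formulae have long bars for members and for all genes.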

How the data were processed

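The deposited table holds RSEM expected counts, that is, estimated counts per gene with no further normalization, for 273 columns, of which 60 match the samples by their labels and 213 were not used. RSEM 1.3.3, STAR 2.7.3a, Trim Galore 0.6.5 and FastQC 0.11.9 are named in the submitters' processing notes, with GRCh38 as the build and no role or order stated. The sources used here give neither strand setting nor annotation release, so reads of overlapping and antisense genes cannot be assigned with certainty. Values were rounded (8.8% were not whole), and library totals ran from 20459346 to 36253747.

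Genes with enough counts by filterByExpr (minimum count 10) were fitted in edgeR 4.0.16 (R 4.3.3) with TMM factors, 1 coefficient per group and no block over 57 libraries, and the quasi-likelihood test was adjusted by Benjamini-Hochberg over all 16356 genes within each comparison. There were 24 planned comparisons. DESeq2 1.42.0, other scalings, no filter, trends on length and GC, a library set term, a replicate block and leaving out each library were the alternatives. CPM values are on TMM-scaled totals, except the summed levels of the cell type markers, which are on plain library totals. Lengths, GC content and coordinates come from GENCODE release 29. The members and gene lists, and the tests, were chosen with earlier results of these data known.

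Any member could be named. The rule for naming in each comparison was up to 4 called members in each direction by size and up to 3 called genes of each other list in each direction. CENPE, CENPF and the short kinetochore members were to be named always, but they are not given in every comparison. A gene outside the members that this rule names is not reported here. Some further called members were named after their values were seen. Data of 16084 genes were simulated for Cinnamomi Cortex 500 against vehicle. The test recovered 7.2% of 97 genes changed by 0.2 (log2) and 74.5% of 98 changed by 0.6, so small changes can be missed. The changed genes were drawn from all tested genes, and far more, 2113, were called in the real data. These shares are therefore not the recovery for the members. Replicate numbers were not taken to pair the libraries, their deviations correlating at -0.17 to 0.33 over all comparisons. In Cinnamomi Cortex and Astragali Radix, however, replicate 1 lay in another library set than replicates 2 and 3. Between 500 and 20 µg/mL the correlations were 0.19, 0 and 0.19 in Cinnamomi Cortex and 0.33, 0.05 and 0.18 in Astragali Radix.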

Additional observations from a re-analysis of the deposited data

How the results depend on the processing

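CENPE, CENPF, KIF20B and ASPM in Cinnamomi Cortex 500, CDK1, TOP2A and KIF2C in Sagunja-tang 500 and CDK1 and TOP2A in Samul-tang 500 kept direction and call under every alternative run. Of 48 single gene results called, 19 did so; of 626 alternative values 496 kept the call, 130 lost it and 0 reversed. Leaving out 1 library each gave, for the number of members called against vehicle at 500 µg/mL, 0 to 1 for Cnidii Rhizoma, 0 to 2 for Rehmanniae Radix Preparata, 7 to 12 for Cinnamomi Cortex, 0 to 4 for Astragali Radix, 7 to 12 for Sagunja-tang and 2 to 8 for Samul-tang. For 500 against 20 µg/mL it gave 5 to 9 for Cinnamomi Cortex and 0 to 0 for the others, and for the 12 comparisons of lower doses 11 to 53. Against vehicle, Cnidii Rhizoma 500 had 2 calls in DESeq2, 2 with the replicate block, 2 with the set term, 1 with the GC trend removed and 1 in a fit of vehicle and its own library series alone. Astragali Radix 500 had 1 with RLE size factors, 5 in DESeq2, 4 with the block, 1 with the length trend removed and 4 with the GC trend removed. The set term gave 6 for Sagunja-tang 500, 3 for Samul-tang 500, 14 for Cinnamomi Cortex 500 against 20, and 4 for the lower doses. For 500 against 20, the replicate block gave 1 for Cnidii Rhizoma, and no filter gave 1 for Rehmanniae Radix Preparata and 2 for Sagunja-tang. The cause of these changes was not tested.

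The replicate block moved CENPE in Cinnamomi Cortex 500 to -1.31. The replicate numbers were not taken to pair the libraries, though in Cinnamomi Cortex and Astragali Radix they carry the library set in part. Beside the counts named, the block moved no count of members by over 1.5 times. It gave 15 for Sagunja-tang 500 and 10 for Cinnamomi Cortex 500 against 20. The GC trend removed gave 16 for Sagunja-tang 500, and with no filter 1 of its 9 called members and 2 of 8 in Samul-tang 500 were lower.

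The difference between long and short members in Cinnamomi Cortex 500 against vehicle was -0.42 to -0.33 without 1 library, -0.69 for proteins of at least 2000 residues, -0.57 for at least 1500 (chosen after seeing the data), -0.06 for a median split, -0.19 for exon unions, -0.30 with the length trend removed and -0.31 with the GC trend removed (also added later). Against 20 µg/mL these were -0.39 to -0.32, -0.74, -0.49, -0.11, -0.14, -0.29 and -0.34. For Sagunja-tang 500 against 20 they were -0.15 to -0.08, -0.18, -0.18, -0.08, -0.05, -0.07 and -0.13. Against vehicle, Cnidii Rhizoma 500 ran from -0.07 to -0.03 without 1 library, with -0.12 for at least 2000 residues and 0.0 with the length trend removed. Rehmanniae Radix Preparata 500 ran from -0.02 to -0.01. Astragali Radix 500 ran from -0.08 to -0.06, with -0.02 under the set term. Sagunja-tang 500 ran from -0.14 to -0.10, with -0.18 for at least 2000 residues, -0.02 under the set term and -0.06 with the length trend removed. Samul-tang 500 ran from -0.05 to -0.02, with 0.07 under the set term and 0.01 with the length trend removed. For 500 against 20 the ranges were -0.05 to -0.01 for Cnidii Rhizoma, -0.04 to -0.01 for Rehmanniae Radix Preparata, -0.06 to -0.01 for Astragali Radix and -0.01 to 0.02 for Samul-tang.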

Other observations

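Paeoniae Radix had 1 library at each dose, so its values have no replicate check and no test. The share of all tested genes outside the range of the 3 vehicle libraries was not counted at any dose. The counts that follow are therefore a description and not a result about the members. At 500 µg/mL 8 of the 42 members lay above the range of the 3 vehicle libraries, 14 below it and 20 within. The median log2 difference from vehicle was -0.02, from -0.19 in CKAP2L to 0.22 in CDK1. At 100 µg/mL 15 members lay above, 5 below and 22 within, with a median of 0.03, from -0.09 in ASPM to 0.27 in BIRC5. At 20 µg/mL 11 lay above, 19 below and 12 within, with a median of -0.03, from -0.46 in PLK1, a mitotic kinase, to 0.56 in MAD2L1, a checkpoint protein. The difference between long and short members was 0.01, -0.04 and 0.08 at 500, 100 and 20 µg/mL, inside the range of the other libraries outside Cinnamomi Cortex 500.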
